A study of Homo sapiens with 2 samples.

Results

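The MYC and MAX network is a small family of transcription factors, of which 10 genes were examined in HSC-1 cells after knockdown of the long non-coding RNA LINP1. The genes were MYC, MAX, MXD1, MXD3, MXD4, MXI1, MNT, MLX, MLXIP and MGA, taken by their symbols from a table of 44591 genes. HSC-1 is a human cell line from a cutaneous squamous cell carcinoma. The cells received either a control siRNA (siNC) or siRNA against LINP1 (siLINP1) at about 70% confluency, spent 6 h without serum and then 24 h in medium with 10% serum before RNA was taken, as the sample labels state. The study's methods section gives another confluency and another time from transfection to RNA. Total RNA was sequenced from 1 library per condition, and which of the study's siRNAs against LINP1 was used for it is not given in the sources used here. No difference between siNC and siLINP1 therefore has a replicate check, no p-value was computed, and each 95% interval below covers counting error only.

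MYC drives the transcription of growth, nucleolar and metabolic genes, and binds DNA only as a heterodimer with MAX, at the sequence called the E-box. MAX also pairs with the repressors MXD1, MXI1, MXD3 and MXD4, with MNT and with the large scaffold MGA, so that these proteins compete with MYC for the same partner and the same sites. MLX takes the place of MAX in dimers with MLXIP (also called MondoA), which responds to glucose, and it can also pair with MNT and some MXD proteins. In many epithelia MYC is high in dividing cells, while several MXD genes are turned on as cells leave the cycle.

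Summed over all genes, the counts came to 18829544 in siNC and 15383081 in siLINP1. LINP1 itself had 167 reads in siNC and 23 in siLINP1, a log2 fold change of -2.65 (95% interval -3.35 to -2.02), with each library divided by its size factor (1.08 and 0.930, median of ratios). The labelled cell type was checked against 19 genes of squamous keratinocytes, of which 7 reached 1 RPKM (reads per kilobase of gene length, relative to the total of the library) in siNC and 8 in siLINP1. TP63, a defining gene of these cells, had 6 and 8 reads, and KRT5 had 32 and 24. Others of the list were read more, among them ITGB4 with 5990 and 3962 reads, PERP with 1158 and 1398 and KRT14 with 243 and 87. A list of 14 mesenchymal genes summed to 2673 RPKM in siNC and 2105 in siLINP1, against 97.7 and 87.7 RPKM for the squamous list. Of the 14, 11 reached 1 RPKM in siNC and 10 in siLINP1. Most of the sum came from VIM, S100A4 and SPARC, at 1519, 596 and 505 RPKM in siNC, while COL3A1 had 8 and 6 reads. Of 8 blood cell genes, 1 reached 1 RPKM in each library, CD68 with 1702 and 1307 reads, and CD3E and HBB had 0 reads in both. Of 10 gastric genes, 4 reached 1 RPKM in siNC and 0 in siLINP1, with 479 and 32 reads together. PGC, PGA3 and LIPF had 194, 95 and 82 reads in siNC and 0 in siLINP1, while ATP4A had 13 and 28. The part of these differences in the results on the network was not tested.

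MYC and MXD1 had the largest excess in siLINP1 of the network genes, by 1.86-fold (95% interval 1.67 to 2.07) and 1.96-fold (1.74 to 2.20). MXD4 and MXI1 were lower, by 1.44-fold and 1.28-fold. MAX, the partner that MYC and the MXD proteins share, did not differ beyond its counting error. MLX and MGA were slightly higher, MLXIP was slightly lower, and the intervals of MXD3 and MNT included no change. Every one of the 10 genes passed the minimum of 10 reads summed over both libraries, with sums from 875 to 3808 reads.

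Beyond a 1.5-fold difference, 2 of the 10 genes were higher and 0 were lower in siLINP1. Of all 19840 genes with at least 10 reads, 14.4% were higher and 13.0% were lower by this measure. Genes with few reads make up much of this background. Among the 7071 genes with at least 1000 reads, a depth that 9 of the 10 network genes reached, 5.47% were higher and 3.56% lower. The whole interval was more than 1.5-fold higher for MYC and MXD1, against 3.55% of these 7071 genes, and it was more than 1.5-fold lower for 0 network genes, against 1.58%. The interval was above 0 on the log2 scale for 4 network genes (MYC, MXD1, MLX and MGA), against 31.7% of the genes with at least 1000 reads, and below 0 for 3 (MXD4, MXI1 and MLXIP), against 40.7%. MXI1 is the network gene with under 1000 reads, so 2 of these 3 belong to the 9 that are matched in depth. The median log2 fold change was -0.02 over the 10 genes and -0.04 over the 7071 genes. The balance of directions in the background depends on the scaling. Of the genes with at least 1000 reads that passed 1.5-fold, 60.6% were higher, and 78.8% after scaling by the total count. Of those with an interval off 0, 43.8% were higher, and 57.0% after scaling by the total count.

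**Figure D1:**
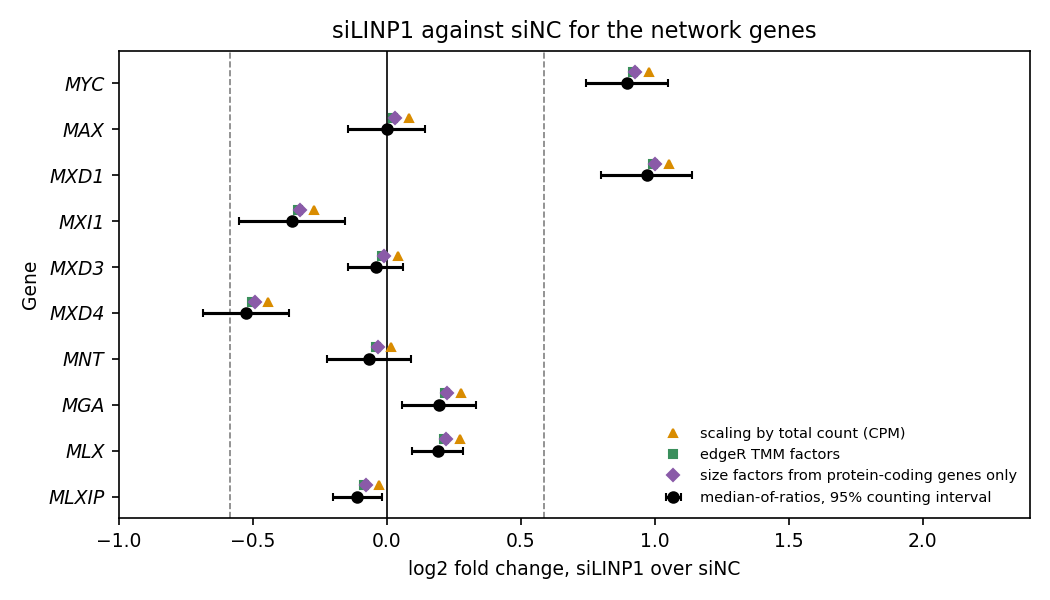
Log2 fold change of siLINP1 over siNC for each network gene. Black points give the value after median-of-ratios scaling with bars for the 95% counting interval, coloured symbols give 3 other scalings, and dashed lines mark 1.5-fold. MYC at 0.90 and MXD1 at 0.97 lie beyond 1.5-fold under each scaling drawn.

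**Figure D2:**
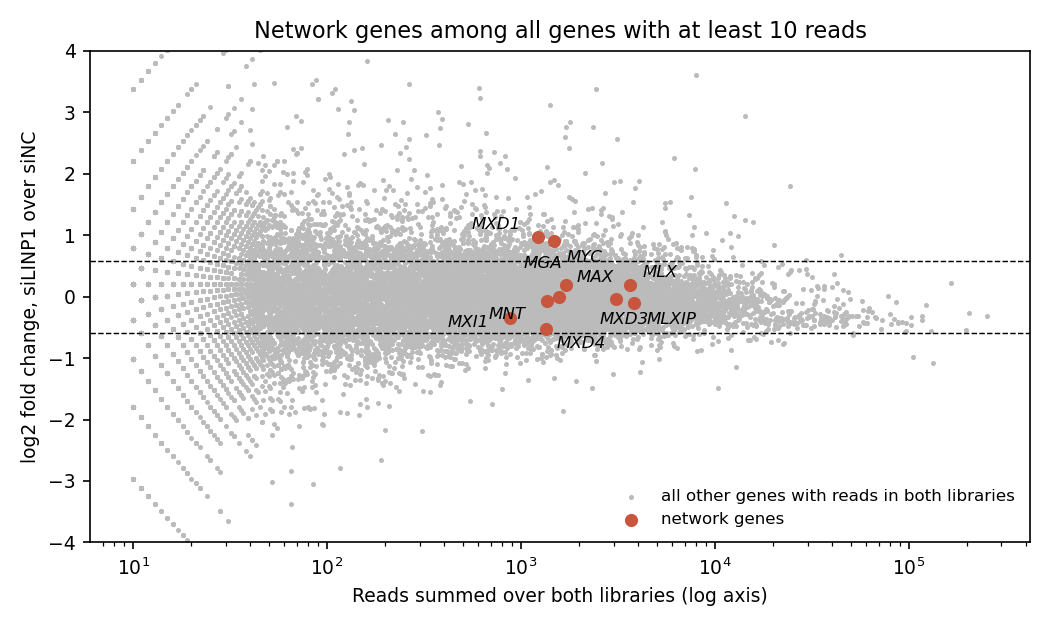
Log2 fold change against the reads summed over both libraries (log axis) for genes with reads in both libraries, with the 10 network genes in red and 1.5-fold as dashed lines; 27 genes lie beyond the axis. Counting scatter narrows with depth, and MYC and MXD1 are among the 5.47% of genes with at least 1000 reads that were more than 1.5-fold higher.

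MYC lies on the plus strand of chromosome 8 of hg19 from 128748315 to 128753680 in the table. It had 564 reads in siNC and 908 in siLINP1. The log2 fold change was 0.90 (95% interval 0.74 to 1.05), and it ranged from 0.89 to 0.98 over 5 other scalings and pseudocounts. Per length, the level of MYC was 12.7 RPKM in siNC (95% Poisson interval 11.6 to 13.7) and 24.9 RPKM in siLINP1 (23.4 to 26.6). In siNC, 74.0% of protein-coding genes lay below MYC in RPKM, and in siLINP1 84.8%. RPKM values are scaled to the total count of each library, which puts the siLINP1 library 0.08 higher on the log2 scale than the size factors do. The related genes MYCN and MYCL were little read. MYCL had 52 and 57 reads (log2 fold change 0.34, 95% interval -0.23 to 0.91), and MYCN had 0 and 1 read, so that MYC gave nearly all reads of its family in both libraries.

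MAX encodes the obligate partner of MYC (chr14:65472819-65569413 of hg19, minus strand). It had 846 reads in siNC and 731 in siLINP1, which after scaling is a log2 fold change of -0.00 (95% interval -0.15 to 0.14), and its level was 14.8 RPKM and 15.6 RPKM. MAX overlaps FNTB on the opposite strand, with 321 and 188 reads. In the GENCODE annotation of GRCh37, 16.1% of the exonic bases of MAX also lie in exons of other genes. The strand setting of the counting is not given in the sources used here, and without strand the reads of overlapping genes cannot be told apart.

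The ratio of MYC to each partner was compared between the libraries, since a ratio of reads within 1 library needs no scaling. The RPKM of MYC was 0.856 times that of MAX in siNC and 1.59 times that of MAX in siLINP1. The ratio of their reads was 1.86 times as large in siLINP1 (exact 95% interval 1.61 to 2.16). It was 2.68 times as large for MYC to MXD4 (2.29 to 3.13) and 2.38 times as large for MYC to MXI1 (2.0 to 2.84). MXD1 was the exception among the 9 partners. The RPKM ratio of MYC to MXD1 was 2.96 in siNC and 2.81 in siLINP1, and the ratio of reads changed by 0.951 (0.810 to 1.12), an interval that includes no change. For the other 8 partners the interval lay above 1. All 9 ratios share the same reads of MYC, so they are not separate observations. With MAX as the reference gene in place of MYC, the interval lay above 1 for 2 partners, MXD4 at 1.44 (1.24 to 1.67) and MXI1 at 1.28 (1.08 to 1.52). It lay below 1 for MYC itself, for MXD1 at 0.510 (0.437 to 0.596) and for MLX at 0.876 (0.777 to 0.988).

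**Figure D3:**
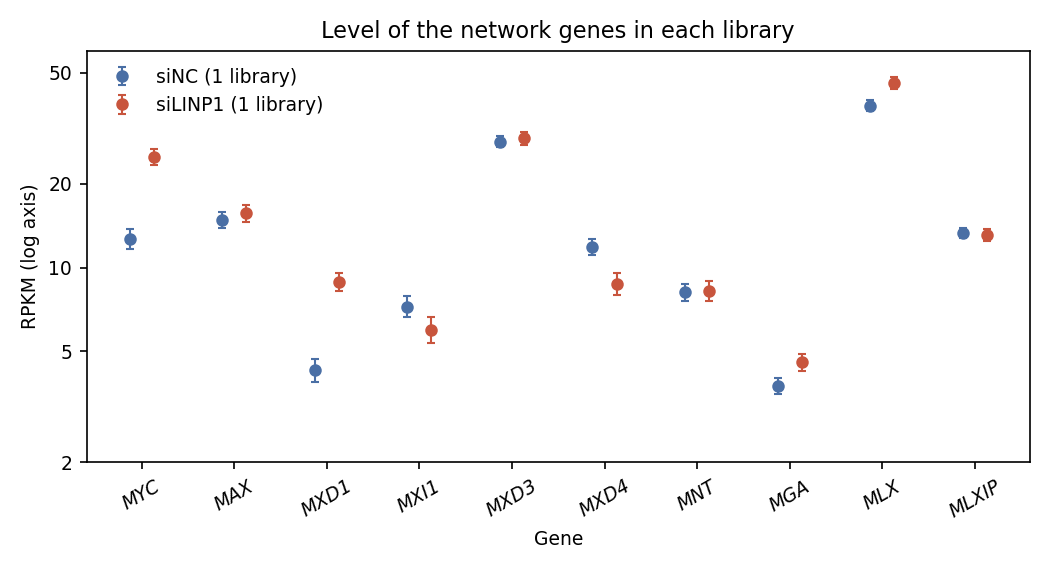
Level of each network gene in RPKM (log axis) in the siNC library (blue) and the siLINP1 library (red), with 95% Poisson intervals of the counts. MYC moved from 12.7 to 24.9 RPKM and from below MAX to above it, while MAX stayed between 14.8 and 15.6 RPKM.

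The MXD genes encode repressors that bind MAX and recruit the SIN3 corepressor to E-boxes, and the members of the family went different ways. MXD1, a gene that is often turned on in differentiating cells, had 453 reads in siNC and 767 in siLINP1, a log2 fold change of 0.97 (95% interval 0.80 to 1.14). Its level was 4.28 RPKM (3.90 to 4.70) in siNC and 8.88 RPKM (8.26 to 9.53) in siLINP1. MXD4 had 844 and 507 reads (log2 fold change -0.53, -0.69 to -0.37), with 11.9 RPKM in siNC and 8.74 RPKM in siLINP1. MXI1, also known as MXD2, had 522 and 353 reads (log2 fold change -0.35, -0.55 to -0.16), with 7.23 RPKM and 5.98 RPKM. In hg19, MXD1 lies at chr2:70142173-70170077 (plus strand), MXD4 at chr4:2249160-2263739 (minus), MXI1 at chr10:111967363-112047123 (plus) and MXD3 at chr5:176732501-176739292 (minus). The values of MXD4 and MXI1 stayed below 0 under each scaling, and both lay inside 1.5-fold. MXD3, the most read gene of the family, had 1686 and 1416 reads (log2 fold change -0.04, -0.15 to 0.06), with 28.3 and 29.1 RPKM. MXD3 overlaps PRELID1 on the opposite strand, which had 4129 and 3337 reads, and 43.7% of its exonic bases in GENCODE are shared with other genes, so the value of MXD3 is uncertain.

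Summed over MXD1, MXI1, MXD3 and MXD4, the level was 51.7 RPKM in siNC and 52.7 RPKM in siLINP1, and the make-up of the family differed more than its sum. MXD1 took 12.9% of the reads of the 4 genes in siNC (95% Clopper-Pearson interval 11.8% to 14.1%) and 25.2% in siLINP1 (23.7% to 26.8%). MXD4 took 24.1% (22.7% to 25.5%) and 16.7% (15.4% to 18.0%). MXI1 took 14.9% (13.7% to 16.1%) and 11.6% (10.5% to 12.8%). For MXD3 the shares were 48.1% (46.4% to 49.8%) and 46.5% (44.7% to 48.3%), whose intervals overlap. Shares of reads are not corrected for gene length, so they do not rank the genes by level. Per length, MXD1 made up 8.28% of the summed RPKM in siNC and 16.8% in siLINP1, and MXD4 23.0% and 16.6%. MXI1 made up 14.0% and 11.4%, and MXD3 54.8% and 55.2%. With MNT and MGA added to the 4 MXD genes, the RPKM of the 6 MAX-binding antagonists summed to 63.6 in siNC and 65.5 in siLINP1. The RPKM of MYC per unit of this sum was 0.199 in siNC and 0.381 in siLINP1. MXD3, whose value is uncertain, was the largest part of both sums, at 28.3 and 29.1 RPKM. The sums, the shares and this ratio carry that uncertainty. RPKM also puts siLINP1 0.08 higher on the log2 scale than the size factors do, so the slight excess of both sums in siLINP1 depends on the scaling. These are levels of RNA, and the amounts of protein were not measured by these libraries.

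The network binds E-boxes, so the RefSeq promoter windows of its own genes were searched for them. A window runs from 250 bases before to 50 bases after a gene's start. The RefSeq table (GRCh38.p14) held 14 windows of 9 network genes, all but MYC, and all 14 were found letter for letter in GRCh37, whose coordinates are given here. The canonical E-box CACGTG, which reads the same on both strands, was in 3 of the 14 windows (21.4%), against 7.26% of all 35116 windows in the table. The looser form CANNTG, which includes CACGTG, was in 8 of the 14, against 68.7% of all windows. The 3 windows with CACGTG were those of MXD4, which was lower in siLINP1, of MNT, whose interval included no change, and of MLX, which was slightly higher. They are shown as 60 bases around the match, 5′ to 3′ on the gene's strand, with CACGTG in capitals. It begins at -238 in MXD4, at -193 in MNT and at -50 in MLX, counted from the RefSeq start, which can differ from the gene's start in the count table.
MXD4, minus strand, chr4:2264027-2264086: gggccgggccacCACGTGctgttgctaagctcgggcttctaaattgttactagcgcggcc
MNT, minus strand, chr17:2304515-2304574: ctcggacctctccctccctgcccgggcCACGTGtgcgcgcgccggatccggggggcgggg
MLX, plus strand, chr17:40719041-40719100: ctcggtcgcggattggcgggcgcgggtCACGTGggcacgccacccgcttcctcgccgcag

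The upstream part of the MXD1 window is shown whole, because MXD1 had the largest fold of the network genes. It holds no CACGTG and 3 matches to CANNTG, in capitals, which begin at -235, -201 and -132. A match is a run of letters, and no binding was measured here.
MXD1, plus strand, chr2:70141991-70142240: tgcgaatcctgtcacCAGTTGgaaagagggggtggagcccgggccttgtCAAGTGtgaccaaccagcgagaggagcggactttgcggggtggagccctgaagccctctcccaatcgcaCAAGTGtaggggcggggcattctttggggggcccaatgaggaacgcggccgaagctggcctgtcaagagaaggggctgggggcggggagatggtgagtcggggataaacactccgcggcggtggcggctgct

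MNT (chr17:2287354-2304258 of hg19, minus strand) and MGA (chr15:41952610-42062141, plus strand) are the larger MAX-binding antagonists. MNT, which is expressed in most cells and holds MYC targets in check, was read 743 times in the siNC and 614 times in the siLINP1 library (8.15 and 8.24 RPKM). The fold change on the log2 scale was -0.07 (95% interval -0.22 to 0.09), and it turned to 0.02 after scaling by the total count. An antisense RNA inside MNT had 116 and 81 reads. MGA, a scaffold that carries a second DNA-binding domain and assembles a Polycomb complex, had 854 and 845 reads. Its log2 fold change was 0.19 (0.06 to 0.33), with 3.77 and 4.56 RPKM. The excess of MGA in siLINP1 was thus small against that of MYC, and its interval stayed above 0 under each of the 4 scalings.

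MLX (chr17:40719078-40725221 of hg19, plus strand) and MLXIP (chr12:122516634-122631894, plus strand) form the glucose-sensing arm of the network. MLX was the gene with the highest level in both libraries, at 38.1 RPKM in siNC and 46.0 RPKM in siLINP1. It had 1838 and 1812 reads (log2 fold change 0.19, 95% interval 0.09 to 0.28), and it shares 18.2% of its exonic bases with other genes, among them PSMC3IP on the opposite strand with 549 and 540 reads. MLXIP had 2114 and 1694 reads, the most of any member in siNC, and a log2 fold change of -0.11 (-0.20 to -0.02). The interval of MLXIP included 0 after each of the 3 other scalings, for example -0.12 to 0.07 after scaling by the total count. Its level was 13.3 and 13.1 RPKM. MLXIPL, which encodes the related factor ChREBP, had 6 and 4 reads, so MLXIP was the read form of this pair.

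Ordered by level per length, the siNC library had MLX at 38.1 and MXD3 at 28.3 RPKM at the top, followed by MAX, MLXIP, MYC and MXD4 between 14.8 and 11.9 RPKM. In this group of 4 the counting intervals of neighbours overlapped. MNT and MXI1 came next with overlapping intervals, then MXD1 at 4.28 and MGA at 3.77 RPKM, which also overlapped. In the siLINP1 library MYC stood in rank 3, and its interval lay apart from those of MXD3 above it and MAX below it. MXD1 moved from rank 9 to rank 6, where its interval overlapped that of MXD4, and MXD4 in turn overlapped MNT. MLX and MXD3 kept ranks 1 and 2 and MGA kept rank 10.

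Genes around the network were read from 11 lists, which together hold 232 genes of the table. The background for their counts beyond 1.5-fold is 14.4% higher and 13.0% lower of the genes with at least 10 reads, or 5.47% and 3.56% of those with at least 1000 reads. In the same 2 sets of genes, 47.8% and 45.0% were above 0 on the log2 scale, and the median log2 fold change was -0.02 and -0.04. No gene counted in a list had 0 reads in either library.

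Among 18 cofactors and chromatin partners of MYC, 1 was higher and 0 were lower by more than 1.5-fold, with a median log2 fold change of -0.09. ZBTB17, which encodes MIZ1, the factor through which MYC represses genes, had 664 and 1031 reads (log2 fold change 0.84, 95% interval 0.70 to 0.99). CDK9, the kinase that releases paused polymerase, had 1298 and 1485 reads (0.40). At the low end stood SMARCB1, a subunit of the SWI/SNF remodeller that binds MYC, with 1631 and 987 reads (-0.52), and ACTL6A with 906 and 590 reads (-0.41).

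Among 18 regulators of the turnover of MYC protein, 1 was higher and 1 was lower by more than 1.5-fold. The median log2 fold change was -0.11, and the count of lower genes was 0 after scaling by the total count. USP36, a nucleolar deubiquitinase that stabilises MYC, had 2103 and 2971 reads (log2 fold change 0.71, 95% interval 0.63 to 0.79). FBXW7, the substrate receptor of the ubiquitin ligase that degrades MYC, had 407 and 469 reads (0.41). PLK1, a mitotic kinase, had 2523 and 1499 reads (-0.54), at the low end and inside 1.5-fold. A stabiliser and a degrader of MYC were thus both at the high end of the list.

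The corepressors that MXD and MNT proteins recruit showed little difference. Of 18 genes of the SIN3 and NCoR complexes, 1 was higher and 0 were lower by more than 1.5-fold, and the median log2 fold change was 0.05. ARID4A, a SIN3 subunit, had 368 and 517 reads (0.70), and HDAC1, the shared deacetylase, had 1722 and 2014 reads (0.44). SIN3A, the scaffold, had 1419 and 1072 reads (-0.20), at the low end of the list. Of 14 genes of the Polycomb complex that MGA assembles, 1 was higher and 1 was lower, with a median of -0.13. RYBP had 743 and 1049 reads (0.71), and TFDP1, the dimer partner of E2F proteins, had 2474 and 1274 reads (-0.75, 95% interval -0.85 to -0.65). CBX3, a heterochromatin protein, had 3598 and 2383 reads (-0.38).

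Each list of known MYC targets held genes above and below 0 on the log2 scale. Of 40 nucleolar and ribosome biogenesis genes that MYC activates, 25 were above and 15 below 0, while 2 were higher and 1 was lower by more than 1.5-fold, with a median log2 fold change of 0.05. NOLC1, a nucleolar phosphoprotein, stood apart with 1654 and 3866 reads (log2 fold change 1.43, 95% interval 1.35 to 1.52). POLR1B, a subunit of RNA polymerase I, had 1165 and 1525 reads (0.60). FBL, the methyltransferase fibrillarin, had 3756 and 2159 reads (-0.59, inside 1.5-fold with each of the 3 other scalings), and NPM1 had 28289 and 17827 reads (-0.46).

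Of 45 metabolic and growth genes that MYC activates, 13 were above and 32 below 0, with a median of -0.18, and 1 was higher and 5 were lower by more than 1.5-fold. The higher gene was ODC1, the first enzyme of polyamine synthesis and a direct MYC target, with 1100 and 1759 reads (log2 fold change 0.89, 95% interval 0.78 to 1.0). ENO1, a glycolytic enzyme, had 72905 and 31943 reads (-0.98, -1.0 to -0.96), and PHB had 4109 and 2030 reads (-0.81). ENO1 and NPM1 have processed copies in the genome that can share reads.

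Of 21 cell cycle genes that MYC activates, 2 were higher and 1 was lower by more than 1.5-fold, with a median of -0.07. ID2, an inhibitor of differentiation factors, had 38 and 95 reads (log2 fold change 1.53, 95% interval 0.97 to 2.11), and CDK6 had 3968 and 5813 reads (0.76). E2F2 had 76 and 43 reads (-0.61, -1.19 to -0.05), and CKS2 had 1138 and 674 reads (-0.55). E2F2 was inside 1.5-fold after scaling by the total count and with size factors from protein-coding genes.

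Of 24 genes that MYC represses, 12 were above and 12 below 0, with a median of 0.02, while 6 were higher and 4 were lower by more than 1.5-fold. CDKN2C, an inhibitor of CDK4 and CDK6, had 721 and 1429 reads (log2 fold change 1.20, 95% interval 1.07 to 1.33). DDIT3, the stress factor CHOP, had 1965 and 3558 reads (1.07). COL1A1 had 190 and 79 reads (-1.06, -1.45 to -0.67), and PDGFRB had 369 and 172 reads (-0.89). Higher and lower genes thus stood side by side in the repressed list, and in the 3 activated lists the medians lay between -0.18 and 0.05.

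Targets of MLXIP and ChREBP also went both ways. Of 14 such genes, 4 were higher and 2 were lower by more than 1.5-fold, with a median log2 fold change of 0.16. KLF10 had 1653 and 4177 reads (log2 fold change 1.55, 95% interval 1.46 to 1.63), and ARRDC3 had 1191 and 2037 reads (0.98). ACACB, which makes malonyl-CoA at mitochondria, had 469 and 222 reads (-0.87), and PFKFB2 had 607 and 376 reads (-0.48). TXNIP, the best known target of MLXIP, had 17891 and 14796 reads (-0.06); it was named after its values were seen.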

How the data were processed

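Total RNA of HSC-1 cells was sequenced at 1 library per condition. The paper's methods name alignment to GRCh37/hg19 with Tophat2 and the use of HTSeq on the aligned reads, without saying which tool made the counts. The submitters' processing notes also list Bowtie2, HISAT and HISAT2. Versions, gene annotation, counting mode and strand setting are not given in the sources used here. The authors deposited raw read counts for each gene. RPKM values that the authors deposited beside them are the counts over the tabulated gene length and the total of the library. The 12 columns of other samples in the table were not used.

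Size factors were medians of ratios. A gene was kept if its reads in both libraries came to 10 or more. The log2 fold change took no pseudocount, and its 95% interval was derived from how a gene's reads divide between the libraries (Clopper-Pearson). Ratios between genes were conditional odds ratios with exact intervals. Intervals cover counting error only. They can be too narrow even for that, since reads without molecular identifiers are not independent molecules. With 1 library per condition no test was made.

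The network genes and the lists were chosen with earlier results of these data known. Lists were written from general knowledge. The text names each network gene, LINP1, the listed relatives of MYC and MLXIP, overlapping genes, and from each list the 2 highest and 2 lowest genes with at least 100 reads; some results on single genes are not reported here. Promoter windows came from RefSeq. Alternatives were total-count scaling (CPM), edgeR TMM factors, size factors from protein-coding genes, pseudocounts of 1 and 5, minimums of 1 and 100 reads, a 2-fold threshold and MAX as the reference of the ratios. The calculation was checked on simulated counts. The software was R 4.3.3 with edgeR 4.0.16 (TMM factors only), and Python 3.11.15 with scipy 1.17.1, pandas 2.3.3, numpy 2.4.6 and matplotlib 3.10.9.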

Additional observations from a re-analysis of the deposited data

How the results depend on the processing

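No paired analysis was possible because each condition had 1 library. Each of the 10 network genes stayed inside its counting interval under the 5 other scalings and pseudocounts, and so did the 9 ratios of MYC to its partners with a pseudocount of 1. This is a weak check. The other scalings shift every gene by the same amount, at most 0.08 on the log2 scale, and the pseudocounts are small beside these counts. After scaling by the total count, 7 of the 10 genes were above 0 instead of 4, because MAX, MXD3 and MNT, whose intervals include 0, moved to 0.08, 0.04 and 0.02. The interval of MLXIP was below 0 only with the main scaling. Counts past 1.5-fold followed the depth and the threshold. With a minimum of 1 read 7048 genes were higher and 6456 lower, with 100 reads 1163 and 903, and by more than 2-fold 1338 and 1051. By more than 2-fold 0 network genes were higher instead of 2, although MXD1 reached a log2 fold change of 1.05 after scaling by the total count. With MAX in place of MYC as the reference, the ratio to MXD1 changed by 0.510, to MXD3 by 1.03, to MXD4 by 1.44, to MXI1 by 1.28, to MNT by 1.05 and to MLXIP by 1.08, and it turned below 1 for MLX (0.876) and MGA (0.873). The median of the cell cycle list turned from -0.07 to 0.01 after scaling by the total count. The single genes counted as lower in the nucleolar and cell cycle lists, FBL and E2F2, fell short of 1.5-fold under that scaling and with size factors from protein-coding genes.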

Other observations

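Other factors of the same structural class also bind E-boxes, and 14 of the 15 listed had at least 10 reads. Of these, 3 were higher and 1 was lower in siLINP1 by more than 1.5-fold, beside 14.4% and 13.0% of all genes, and the median log2 fold change was 0.15. BHLHE41, a repressor of the circadian clock, had 294 reads in siNC and 778 in siLINP1, with 1.61 as log2 fold change (95% interval 1.42 to 1.81). Its relative BHLHE40 had 953 and 1745 reads, with 1.08 as log2 fold change (0.97 to 1.20). TFAP4, which is itself a target of MYC, had 416 and 576 reads (log2 fold change 0.68), and was named after its values were seen. At the low end, SREBF1, a regulator of lipid synthesis, had 5550 and 3195 reads (-0.59, -0.65 to -0.52), and USF2 had 2769 and 1732 reads (-0.47). SREBF1 was past 1.5-fold with the main scaling and inside it with the 3 others. BHLHE41 and BHLHE40 had larger log2 fold changes than MYC at 0.90.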
